A study of Mus musculus with 98 samples.

Results

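The response to stimulation was measured in primary mouse hippocampal neurons whose Acss2 level had been raised by a virus (upACSS2) and which had then been given PBS. The comparison set 3 stimulated libraries against 3 unstimulated libraries at day 21 in vitro, chosen by their titles and column names, which makes 6 of the 98 libraries of the series. Neurons were taken from embryos (strain CD1 in the labels of the unstimulated libraries; no strain is given for the stimulated ones), and total RNA was sequenced. Every culture carried a PhP.eB virus, added on day 5 for 48 hours, that held either Acss2 or no insert (vector), and was washed on day 7 before PBS or tau (hAD-tau) was added. Vector neurons in PBS, 3 stimulated and 3 unstimulated, served as the comparison for what Acss2 changes, and upACSS2 neurons given tau, 3 and 3, as the same contrast in other libraries. The agent that stimulated the neurons, the time it acted and the promoter that drives Acss2 in the virus are not given in the sources used here. The treatment entry of the unstimulated upACSS2 PBS libraries names tau where the title names PBS. Groups follow the titles, and if the entry were right the comparison would set PBS against tau as well. Stimulated and unstimulated libraries stand in separate count tables, so stimulation and table (culture, sequencing or counting) cannot be told apart in any stimulated against unstimulated value. The labels do not say that replicates were separate cultures, so p-values measure only the spread between these samples.

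ACSS2 is an enzyme that joins acetate to coenzyme A. In neurons it is known to work in the nucleus as well as in the cytoplasm, where its acetyl-CoA can be used for histone acetylation. When neurons fire, calcium entry and MAP kinase signalling switch on immediate early genes within minutes through factors already present, among them CREB and SRF. Many of these genes encode transcription factors such as Fos, Egr1 and Npas4, which then act on later genes, while others encode synaptic proteins such as Arc or phosphatases that shut the signal down.

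Acss2 followed the titles. Its level was 2799, 2109 and 3530 reads per 1e+06 counted reads (CPM) in the stimulated upACSS2 libraries (2813 ± 710, SD, n = 3) and 2486, 2248 and 4287 in the unstimulated ones (3007 ± 1120, SD, n = 3). Vector libraries gave 57.7, 47.2 and 58.5 CPM when stimulated (54.46 ± 6.32, SD, n = 3) and 58.9, 46.0 and 49.1 CPM when not (51.34 ± 6.71, SD, n = 3). Every upACSS2 library thus stood above every vector library, by 51.6-fold with stimulation and 58.6-fold without; a two-sided exact permutation test gave p = 0.1 for each, the smallest that 3 against 3 allows. Within upACSS2 neurons the stimulated and unstimulated levels overlapped (exact permutation p = 0.8), so the Acss2 level was not shown to move with stimulation. A check of this kind speaks to the virus and not to tau.

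Depth was 29345774 to 34971575 gene counts in the stimulated and 19464816 to 24527971 in the unstimulated upACSS2 libraries, and 19322013 to 39985460 over the vector libraries in PBS. Some features of single libraries touch the results. Unstimulated upACSS2 replicate 1 and unstimulated vector replicate 2 gave 7.93% and 11% of their counts to the ribosomal RNA gene Rn45s. Unstimulated vector replicate 3 was high in astrocyte markers, and unstimulated upACSS2 replicate 3 in genes of cholesterol synthesis. All 18 neuron markers examined passed the filter on low counts, as did all 14 astrocyte and all 12 oligodendrocyte lineage markers. Oligodendrocyte lineage markers summed to 1090 to 3626 CPM in the 12 PBS libraries. Of 14 microglial markers 12 passed, summing to 18.97 to 36.9 CPM, with Cx3cr1 and C1qa at or below 0.555 and 0.754 CPM. Of 14 endothelial, mural and fibroblast markers 10 passed, summing to 38.96 to 108.7 CPM, while Cldn5, Pecam1, Tek and Acta2 did not pass.

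Stimulated upACSS2 neurons differed from unstimulated ones in a compact set of strongly raised genes. Of 15108 genes tested, 559 (3.7%) passed an adjusted p of 0.05 in edgeR's quasi-likelihood test with Benjamini-Hochberg adjustment, 358 higher (2.37%) and 201 lower (1.33%). With a change of at least 2-fold required as well (1 on the log2 scale), 177 genes were higher (1.17%) and 21 lower (0.139%). The median over all genes was -0.014 on the log2 scale. Same-numbered stimulated and unstimulated libraries deviated together from their group means, and with the replicate number as a block across the tables edgeR called 1047 genes (649 higher, 398 lower), among them 543 of the 559. Without 1 library at a time the count was 326 to 408, lowest without stimulated replicate 1.

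Many known activity genes were among the raised genes. Over 5 lists of such genes (AP-1 factors, other early transcription factors, plasticity effectors, secreted factors, and phosphatases with other feedback inhibitors), 103 members passed the filter and 57 rose, against 2.37% of all genes, and none fell. Batf and Nts did not pass the filter. The count was 50 without the libraries high in Rn45s and 50 to 54 with 1 library left out at a time; with the replicate block it was 65 higher and 2 lower. These lists hold genes known to answer to neuronal activity and were chosen with results of these data known, so their direction is not independent evidence.

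The promoters of 4 of the most raised genes are shown because they carry the core or the full form of the cyclic AMP response element (CRE), the site that CREB binds. Each is the 250 bases before the transcript start that the promoter table uses, from RefSeq on GRCm38.p6; for Npas4 and Nr4a1 that start lies inside the span of the gene. They are read 5′ to 3′ in the direction of transcription, with capitals marking the core TGACG on either strand (CGTCA on the strand printed) or the full palindrome TGACGTCA, which contains it and is found here in Dusp1 only. In the same 250 bases Egr2 and Maff, also among the most raised genes, carry neither form. Klf4, Fosb, Atf3 and Ccn1 carry the core at 1 place each and Nr4a2 at 4.
Fos, chr12:85473640-85473889, plus strand: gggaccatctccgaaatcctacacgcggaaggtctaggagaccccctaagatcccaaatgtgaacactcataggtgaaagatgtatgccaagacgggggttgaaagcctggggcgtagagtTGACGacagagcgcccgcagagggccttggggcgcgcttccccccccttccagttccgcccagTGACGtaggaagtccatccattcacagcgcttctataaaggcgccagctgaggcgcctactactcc
Npas4, chr19:4989972-4990221, minus strand: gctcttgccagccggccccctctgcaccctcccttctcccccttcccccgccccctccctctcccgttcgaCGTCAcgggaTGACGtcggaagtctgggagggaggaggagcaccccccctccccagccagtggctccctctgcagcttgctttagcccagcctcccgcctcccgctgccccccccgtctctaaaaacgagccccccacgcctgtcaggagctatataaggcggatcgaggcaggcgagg
Nr4a1, chr15:101266596-101266845, plus strand: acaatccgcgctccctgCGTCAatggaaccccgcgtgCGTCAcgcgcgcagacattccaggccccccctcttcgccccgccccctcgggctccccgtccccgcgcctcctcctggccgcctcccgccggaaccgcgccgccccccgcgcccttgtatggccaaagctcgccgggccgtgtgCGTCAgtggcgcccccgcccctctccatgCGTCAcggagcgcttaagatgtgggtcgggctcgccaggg
Dusp1, chr17:26508473-26508722, minus strand: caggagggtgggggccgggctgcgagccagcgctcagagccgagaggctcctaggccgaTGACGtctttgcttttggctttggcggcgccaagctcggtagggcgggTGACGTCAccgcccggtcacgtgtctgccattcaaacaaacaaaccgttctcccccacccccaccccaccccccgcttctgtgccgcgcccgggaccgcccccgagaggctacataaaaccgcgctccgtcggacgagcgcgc

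A window of 300 bases, from 250 before to 50 after such a start, was found for 138 of the 177 genes raised at least 2-fold and for 11901 of the genes tested. The full element TGACGTCA was in 14 of the 138 windows, or 10.1%, against 3.18% of the windows of all genes tested and 4.07% of those of the genes that fell. On both strands together the core TGACG, which overlaps it, was in 45.7% of the windows of raised genes, 30.6% of all tested and 30.2% of those that fell. The AP-1 motif TGANTCA was in 4.35% of the windows of raised genes, 4.72% of all tested and 4.65% of those that fell. The CArG box of SRF was in 3 of the 138 windows (2.17%), against 1.28% of all tested and 2.33% of those that fell. These matches describe letters in a window, not bound sites.

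**Figure D1:**
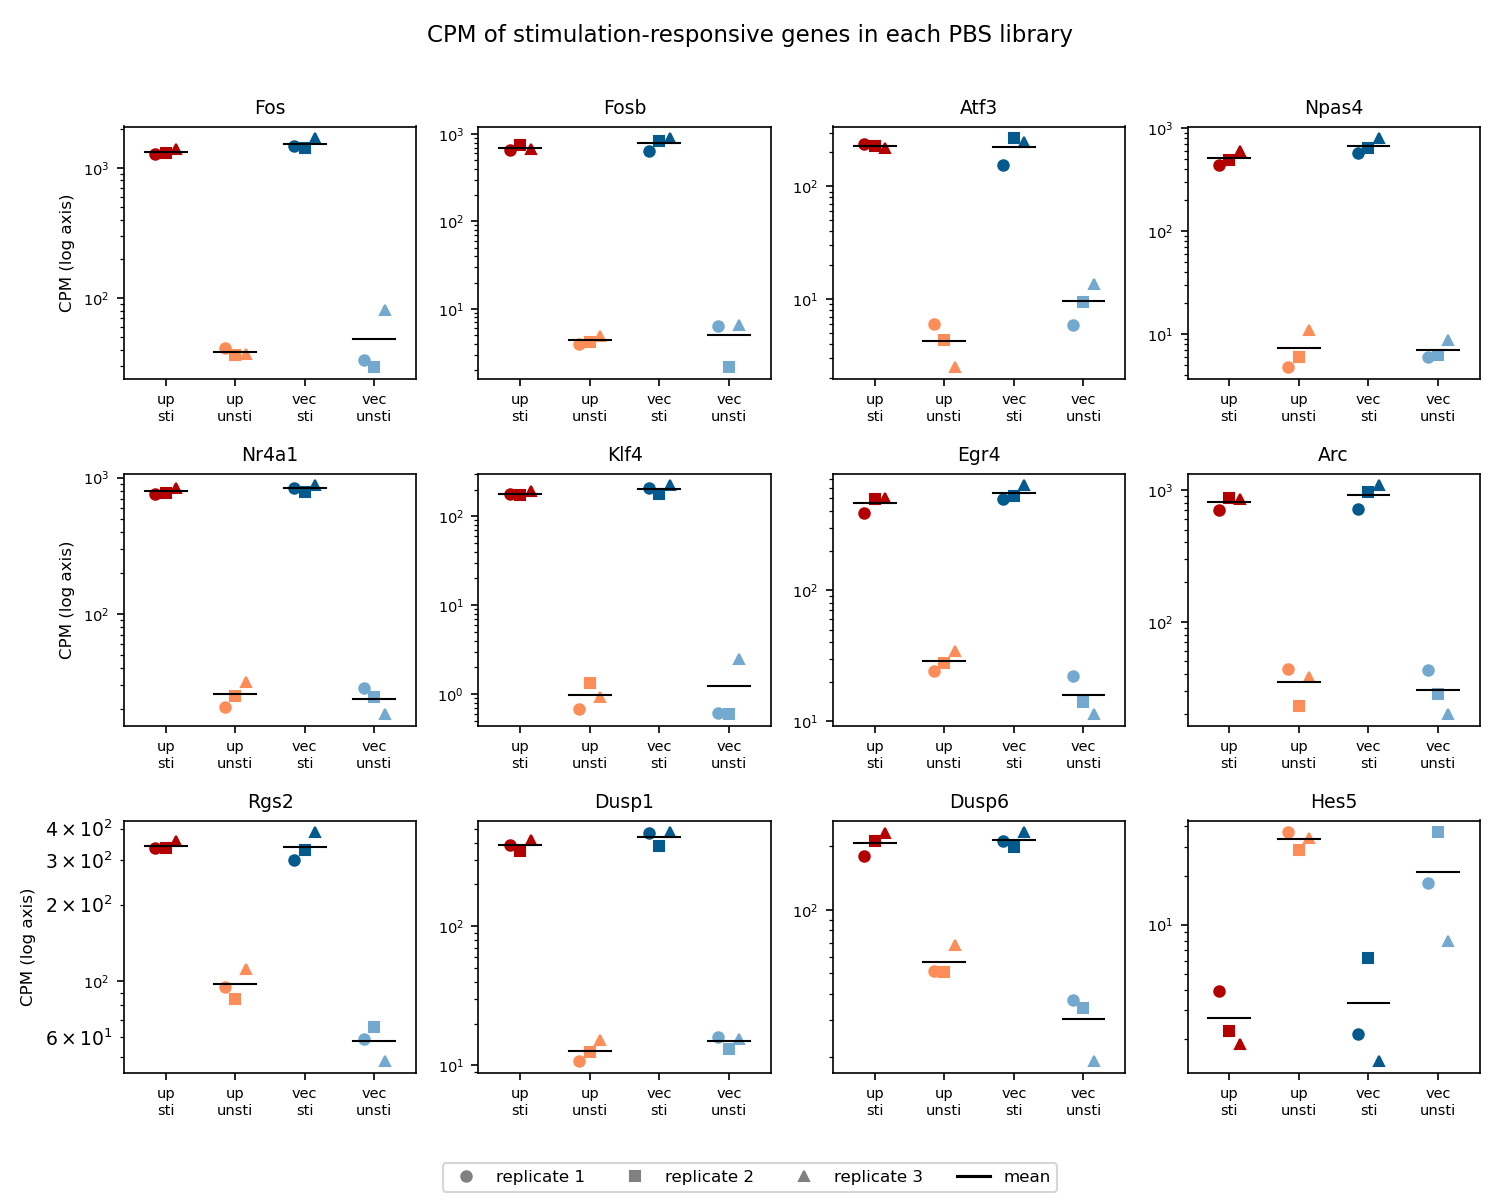
CPM (log axis) of 12 genes in each library in PBS, for stimulated (sti) and unstimulated (unsti) neurons with upACSS2 (up) or vector (vec); symbols are replicates and lines are group means. The 11 activity genes are high in all stimulated libraries of both viruses, and Hes5 is high in the unstimulated ones.

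Among AP-1 factors, 8 of 9 tested members rose, and their list had a median log2 fold change of 2.61. Fos, the founding member of the family and a common mark of recently active neurons, was at 1281, 1307 and 1397 CPM in stimulated and at 41.0, 36.5 and 36.8 CPM in unstimulated upACSS2 libraries. The groups lay far apart with little spread inside either one (log2 fold change 5.12 ± 0.33, SE; adjusted p = 1.99e-09, edgeR). Fosb, whose splice form ΔFosB is stable and outlasts the stimulus, gave 659, 745 and 676 CPM against 3.94, 4.20 and 4.93 CPM, a rise of 7.32 ± 0.37 (adjusted p = 1.15e-10, edgeR). Junb, a Jun partner of Fos proteins, rose from 42.4, 46.5 and 53.6 to 853, 998 and 1058 CPM (4.35 ± 0.28). Its relatives with high levels before stimulation moved less on the log2 scale. Jun rose by 1.67 ± 0.18, from 135, 148 and 159.9 to 441, 469.9 and 495 CPM, and Jund by 1.05 ± 0.16, from 149, 172 and 168 to 310.4, 340.1 and 365 CPM. Fosl2 rose by 2.18 ± 0.27 and Fosl1 by 2.61 ± 0.43, the latter at no more than 1.57 CPM in any of the 6 libraries. Batf3 did not pass the test (0.15).

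Atf3, a stress and injury factor of the ATF family that can pair with Jun, showed one of the steepest changes. It measured 239.6, 229.7 and 218 CPM in stimulated and 5.99, 4.33 and 2.49 CPM in unstimulated upACSS2 libraries. No stimulated library came near an unstimulated one (5.73 ± 0.34, adjusted p = 7.71e-10, edgeR).

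Of 24 other early transcription factors, 21 rose (list median 2.43). Npas4, which is switched on by calcium entry and shapes inhibitory synapses, was at 441, 492 and 599 CPM against 4.75, 5.98 and 10.96 CPM, a rise of 6.15 ± 0.56 (adjusted p = 2.89e-07, edgeR). Klf4, a Krüppel-like zinc finger factor, had 177, 173 and 191 CPM with stimulation and 0.685, 1.34 and 0.935 CPM without it. Almost no Klf4 was counted in unstimulated neurons, and its rise of 7.51 ± 0.41 (adjusted p = 1.57e-10, edgeR) was the largest among the genes that the naming rule covers.

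The orphan nuclear receptors of the Nr4a family rose together. Nr4a1 gave 760.4, 776 and 846 CPM against 20.9, 25.0 and 32.0 CPM (4.94 ± 0.35, adjusted p = 7.13e-09, edgeR), and Nr4a2, needed for dopamine neurons elsewhere in the brain, 374, 366 and 403 CPM against 7.36, 5.67 and 10.4 CPM (5.61 ± 0.41). Nr4a3 rose less, from 143, 136 and 288 to 745, 656 and 838 CPM (1.98 ± 0.30).

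All 4 Egr zinc finger factors rose, and their unstimulated levels were the less even side. Egr1, which is linked to plasticity and memory in the hippocampus, measured 709, 879 and 859 CPM when stimulated and 87.5, 178 and 69.6 CPM when not (2.87 ± 0.39, adjusted p = 6.83e-05, edgeR). Unstimulated replicate 2 was the highest of its group for Egr1, and also for Egr2, at 7.68 CPM against 1.16 and 0.831, and for Ier2, at 28.5 CPM against 12.3 and 11.9. Stimulated libraries were well above them in each case. Egr2, better known from myelinating Schwann cells, rose by 5.58 ± 0.66 and Egr3 by 2.38 ± 0.41. Egr4 was at 389, 494 and 509 CPM against 24.0, 27.9 and 34.5 CPM (4.01 ± 0.27, adjusted p = 4.16e-09, edgeR).

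Of the others, Maff rose by 5.08, Ier2 by 3.30 ± 0.26, the clock gene Per1 by 1.95 and the CREB-family repressor Crem by 0.92 ± 0.21 (from 13.99, 13.6 and 13.9 to 28.0, 22.8 and 27.9 CPM). Crem lost its call without any single library other than stimulated replicate 2 (adjusted p up to 0.0733, edgeR), and Ier3 without any 1 of the 6 (up to 0.18). Both passed with the replicate block across the tables (adjusted p = 0.0166 and 0.00674, edgeR). Srf (0.58, adjusted p = 0.0744, edgeR), Ier5 (0.28) and Klf10 (-0.17) did not pass.

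**Figure D2:**
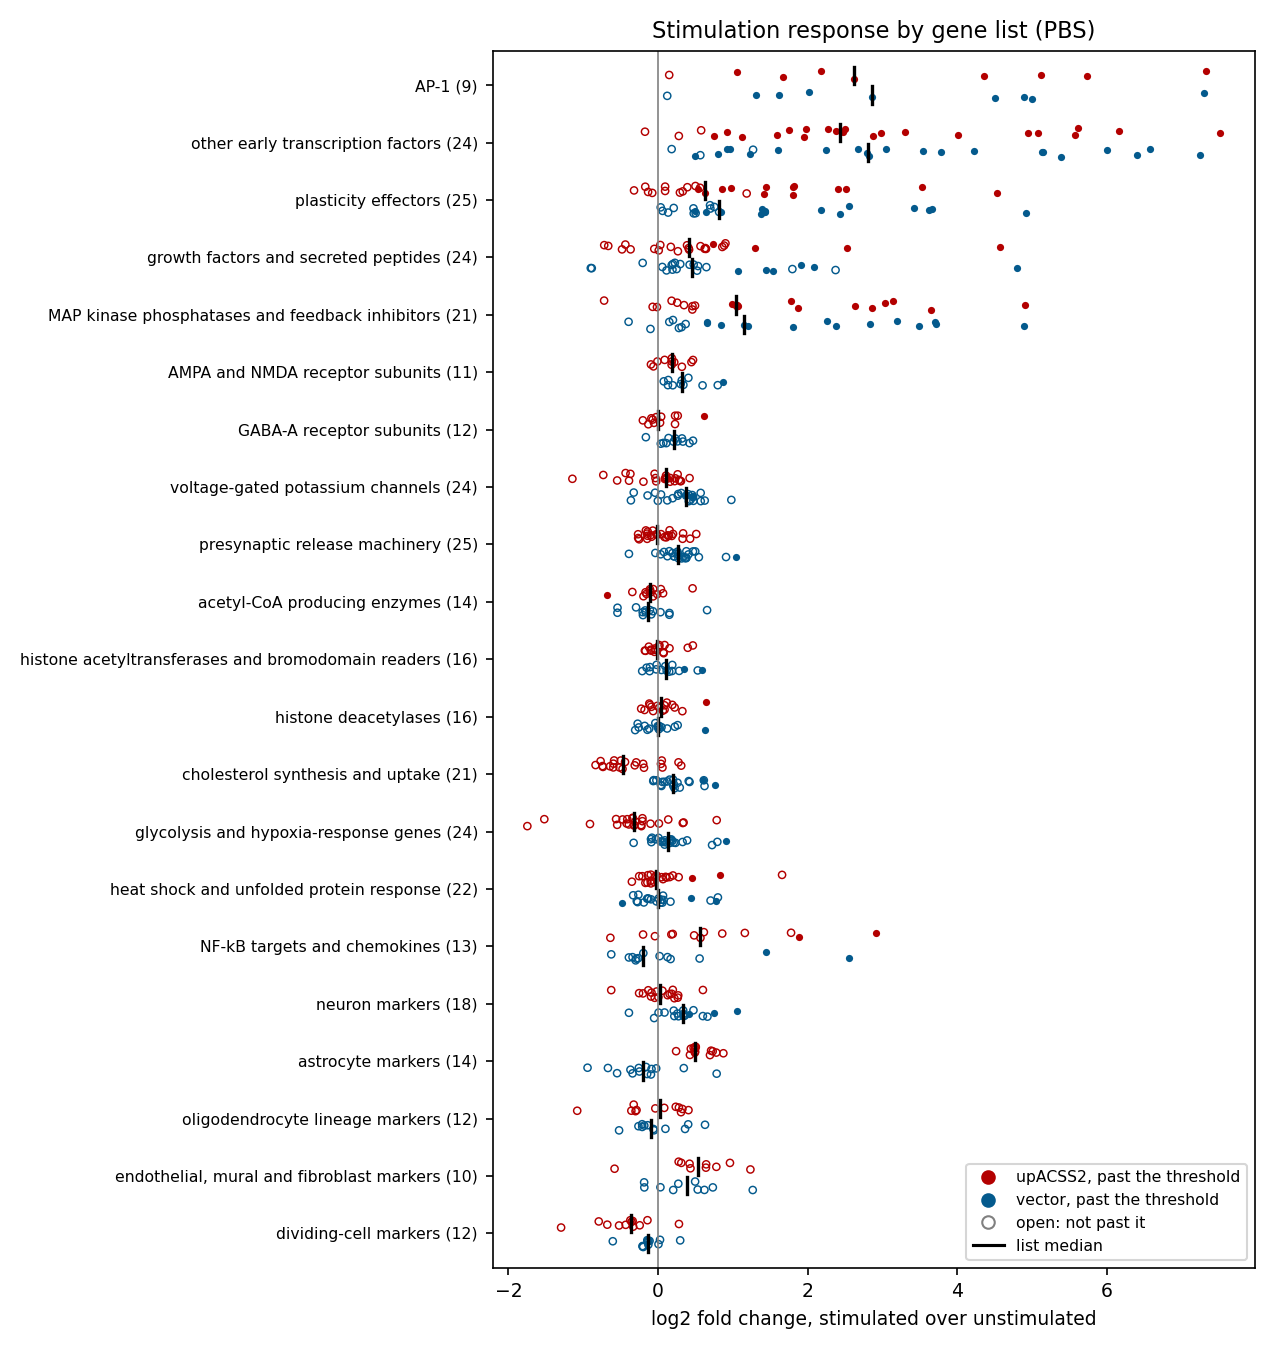
Log2 fold changes, stimulated over unstimulated, of each tested gene in 21 lists for upACSS2 (red) and vector (blue) neurons in PBS; filled points passed an adjusted p of 0.05 and short bars are list medians. The AP-1 factors and other early transcription factors have upACSS2 medians of 2.61 and 2.43. The medians of the lists of receptors, channels and release machinery are -0.015 to 0.184 with upACSS2 and 0.219 to 0.377 with vector.

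Genes that end or limit the signal rose with it. Of 21 phosphatases and feedback inhibitors, 11 rose (list median 1.04). Dusp1, a nuclear phosphatase that inactivates MAP kinases, went from 10.7, 12.4 and 15.1 to 383, 347 and 415 CPM. It had one of the tightest contrasts of all, with both groups narrow (4.91 ± 0.22, adjusted p = 1.83e-11, edgeR). Dusp6, which acts on ERK in the cytoplasm, was at 181, 212 and 231 CPM against 51.2, 51.0 and 68.4 CPM (1.87 ± 0.20, adjusted p = 1.84e-06, edgeR). Btg2, an antiproliferative gene, reached 627, 723 and 732 CPM from 64.9, 52.8 and 48.8 CPM (3.64 ± 0.20). The EGF receptor inhibitor Errfi1 rose by 3.04 ± 0.19, the ERK pathway inhibitor Spry2 by 1.04, and Dusp5, a nuclear ERK phosphatase, by 1.77. Gadd45b and Gadd45g, known for stress responses and for activity-linked DNA demethylation, rose by 2.86 ± 0.21 and 3.14. Blocking added Dusp4 (1.11) and Spred1 (0.35) to the raised genes and Dusp7 (-0.72) to the lowered ones, with adjusted p of 0.0167, 0.0451 and 0.027 in edgeR.

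The plasticity effectors divided into strong and flat genes: 13 of 25 rose, and the list median was 0.629. Their count was 9 without the libraries high in Rn45s and 9 to 12 with 1 library left out. Arc, which removes AMPA receptors from the synapse, measured 707, 863 and 852 CPM in stimulated and 44.1, 23.2 and 37.9 CPM in unstimulated upACSS2 libraries. All stimulated libraries stood far above (4.53 ± 0.45, adjusted p = 9.7e-07, edgeR). The salt-inducible kinase Sik1, which restrains CREB coactivators, rose from 14.2, 13.4 and 9.71 to 145, 143 and 145 CPM (3.53 ± 0.18). Rgs2, a brake on G protein signalling, had 336, 334 and 356 CPM against 94.8, 85.2 and 112 CPM (1.81 ± 0.15). Plk2, a kinase that weakens active synapses, had 434, 382 and 502 CPM against 112, 130.5 and 133 CPM (1.81 ± 0.14, adjusted p = 1.87e-08, edgeR).

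Gem, a small GTPase that restrains calcium channels, gave 36.7, 28.3 and 30.6 CPM against 11.4, 8.88 and 7.06 CPM (1.80 ± 0.34, adjusted p = 0.00278, edgeR). The cyclooxygenase Ptgs2 was uneven within both groups, at 254, 109.5 and 249 CPM against 34.6, 14.1 and 67.2 CPM (2.40 ± 0.53, adjusted p = 0.0113, edgeR). Replicate 2 was the lowest on each side. Its adjusted p was 0.0597 without unstimulated replicate 1 and 0.0654 without unstimulated replicate 2. Homer1, a postsynaptic scaffold with a short activity-induced form, rose by 0.86 ± 0.18, from 84.6, 69.3 and 106 to 169.8, 135 and 168 CPM, and its adjusted p was 0.0607 (edgeR) without unstimulated replicate 2. Under the replicate block across the tables the adjusted p was 0.000419 for Ptgs2 and 0.00457 for Homer1 (edgeR).

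Secreted factors moved less. Of 24 tested members 4 rose, the activin subunit Inhba (1.30 ± 0.33), the EGF-family ligands Areg (4.57) and Hbegf (0.74 ± 0.19), and the peptide Cartpt (2.53). Areg was at 1.57 to 4.14 CPM in stimulated libraries, and 1 of the unstimulated libraries held no Areg count. Areg alone was called without stimulated replicate 1 and without unstimulated replicate 2. Inhba and Hbegf also lost their calls without stimulated or unstimulated replicate 3, and Cartpt without unstimulated replicate 1, while the block gave 8 higher and 1 lower. Bdnf, the neurotrophin most tied to neuronal activity, had 210.1, 211 and 247 CPM with stimulation and 139.6, 98.6 and 196 CPM without. Stimulated libraries were above all unstimulated ones, as they were for 13.4% of all genes tested, but the wide unstimulated group left the value of 0.62 ± 0.33 short of the threshold (adjusted p = 0.362, edgeR; 0.0871 with the block). Vgf, a secreted peptide precursor induced by neurotrophins, measured 716, 872 and 890.5 CPM against 522, 489 and 663 CPM (0.57 ± 0.43, adjusted p = 0.539, edgeR). Nptx2, a pentraxin that clusters AMPA receptors (1.18, 0.0974), and the granin Scg2 passed only with the block (adjusted p = 0.015 and 0.0047, edgeR).

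Ccn1, a matrix protein gene outside the lists, was among the most raised genes, at 407, 320.5 and 457 CPM against 20.3, 8.75 and 11.9 CPM (4.85 ± 0.42, adjusted p = 1.52e-07, edgeR). Of the NF-kB list, 13 of 18 members passed the filter and 2 rose, the IkB-family regulator Nfkbiz (1.89 ± 0.21) and the chemokine Cxcl1 (2.91 ± 0.49). Of 22 heat shock and stress genes, the co-chaperone Dnajb1 (0.83, adjusted p = 0.0281, edgeR) and the stress factor Atf4 (0.45, 0.0404) rose. Dnajb1 lost its call without any single library other than stimulated replicate 3, and Atf4 without any 1 of the 6.

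Genes that fell were fewer and changed less. Hes5, an effector of Notch signalling in progenitors and glia, was at 3.92, 2.22 and 1.85 CPM in stimulated and 37.0, 28.8 and 34.0 CPM in unstimulated upACSS2 libraries. The groups did not overlap, as was so with the stimulated group below for 11.8% of all genes tested (log2 fold change -3.64 ± 0.56, adjusted p = 0.000317, edgeR). Sox8, a factor of glial lineages, measured 52.7, 20.1 and 33.8 CPM against 176, 101 and 118 CPM (-1.89 ± 0.52, adjusted p = 0.0476, edgeR) and was no longer called without any 1 of the 6 libraries (adjusted p up to 0.17). Dact2, a modulator of Wnt and TGF-beta signalling, had 7.05, 11.6 and 9.12 CPM against 15.8, 24.8 and 22.4 CPM (-1.18 ± 0.26), with adjusted p of 0.0782 and 0.0656 in edgeR without stimulated replicate 1 and without unstimulated replicate 2. The replicate block across the tables gave an adjusted p of 5.42e-06 for Sox8 and 0.0025 for Dact2 (edgeR). Zkscan4, a zinc finger gene, was very even within each group, at 3.19, 3.50 and 3.41 CPM against 7.19, 7.36 and 8.15 CPM (-1.17 ± 0.15, adjusted p = 3.57e-05, edgeR). The rest of the 12 most lowered genes under the naming rule held 4 Zfp genes, Zfp786 (-1.10), Zfp273 (-1.07), Zfp108 (-1.06) and Zfp747 (-0.96), with Zswim3 (-1.03), Jrkl (-0.98), Dancr (-0.97) and Bbs10 (-0.94).

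The machinery of transmission gave few calls, where 3.7% of all genes tested were called. No member passed among 11 AMPA and NMDA receptor subunits (median 0.184), 24 potassium channels (0.103) or 25 presynaptic genes (-0.015). Gabrg3, a GABA-A receptor subunit, rose by 0.61 ± 0.13 as the only one of 12 (adjusted p = 0.00952, edgeR), and it lost its call without stimulated replicate 2 (0.092), unstimulated replicate 1 (0.071) or unstimulated replicate 3 (0.0562).

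Genes that make, use or remove acetyl groups gave at most 1 call in each list. Over all genes tested 3.7% were called, so these counts do not set the lists apart. Of 14 acetyl-CoA enzymes 1 fell, Acat2, which joins acetyl-CoA units for sterol synthesis, from 66.8, 60.6 and 107 to 55.4, 42.2 and 48.6 CPM (-0.68 ± 0.17, adjusted p = 0.0268, edgeR). Unstimulated replicate 3 was the high library there, and without it the adjusted p was 0.173. Acat2 was also not called without stimulated replicate 2 (0.118) or 3 (0.0818). None of 16 acetyltransferases and acetyl-lysine readers passed (median -0.013), and of 16 histone deacetylases only Hdac7 rose (0.65, adjusted p = 0.0324, edgeR), a call lost without any single library other than unstimulated replicate 1 (up to 0.139).

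The response of vector neurons to the same stimulation was of the same kind. Vector neurons had 1079 calls (7.14%), 702 of them higher (4.65%) and 377 lower (2.5%). The share of calls that were higher, 65.1%, became 46.9% when libraries were scaled by their totals alone. Leaving out unstimulated vector replicate 1 gave 2836 calls and leaving out stimulated vector replicate 3 gave 460. The count was above that with upACSS2 in DESeq2 too (1635 against 875), but not with the replicate block within tables (344 against 357). The 2 responses share no library but share both count tables. Of the 559 genes called with upACSS2, 366 (65.5%, or 33.9% of the 1079) were called in the same direction with vector, and none in the opposite one. Across all genes the log2 fold changes had a Pearson correlation of 0.500 and a Spearman correlation of 0.282, as a description with no test.

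**Figure D3:**
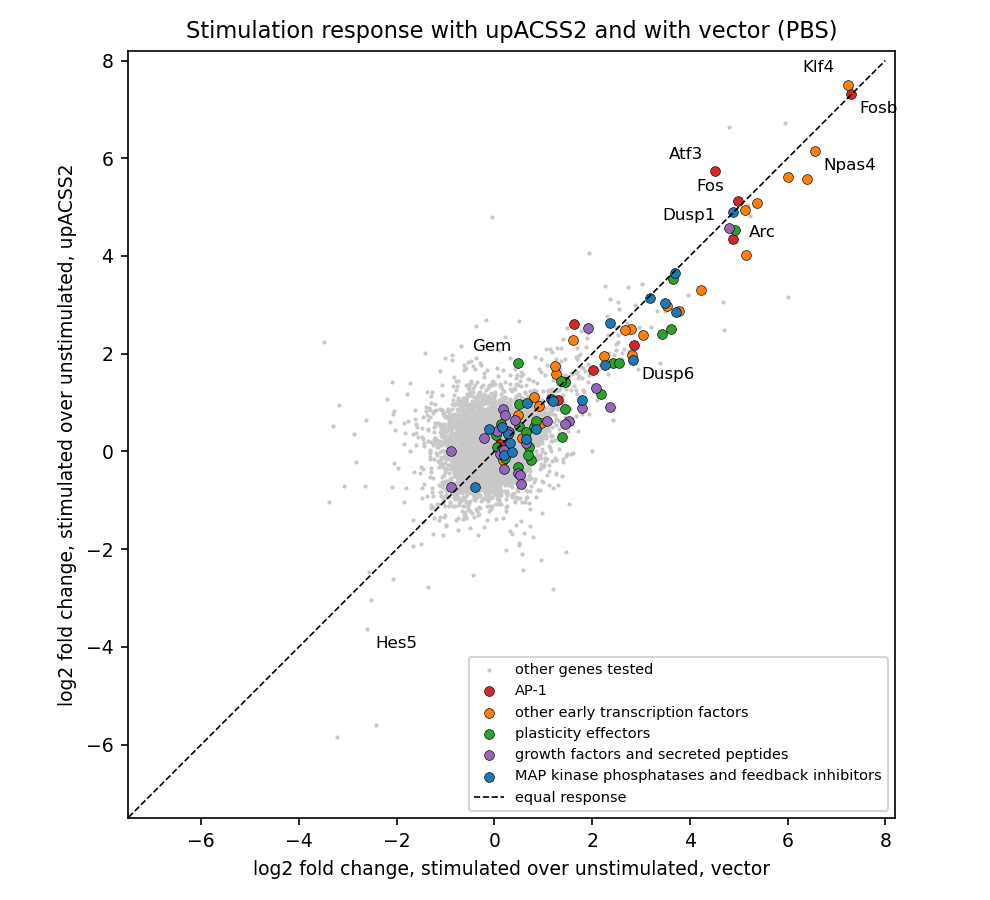
Log2 fold change, stimulated over unstimulated, with upACSS2 (vertical axis) against vector (horizontal axis) for the 15108 genes tested in PBS; coloured points are the 5 activity lists and the dashed line marks equal responses. The most raised activity genes lie along the line.

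The difference of the responses, which sets the upACSS2 effect within the stimulated table against that within the unstimulated table, passed the threshold for none of the 15108 genes in edgeR (0%), and for none in DESeq2. At an unadjusted p below 0.05 edgeR had 1024 genes (6.78%) and DESeq2 1180. Differences for the 12 most raised genes ranged from -0.82 (Egr2) to 1.22 (Atf3) on the log2 scale. For Fosb the vector libraries had 631, 823 and 902 CPM against 6.28, 2.14 and 6.55 CPM, and the difference was 0.02 with a 95% interval of -0.87 to 0.91. For Fos they had 1485, 1422 and 1698 CPM against 33.3, 29.3 and 81.4 CPM (difference 0.13, interval -0.70 to 0.96). Dusp1 had the narrowest interval of these, -0.54 to 0.57 around 0.01, with vector levels of 471, 377 and 476 CPM against 16.01, 13.2 and 15.4 CPM. The intervals are wide for Npas4 (-1.81 to 0.98), Arc (-1.55 to 0.77), Klf4 (-0.90 to 1.43) and Nr4a1 (-1.08 to 0.69), so at this depth and spread a difference of 1 log2 unit could not be told from none for them. Atf3, described further on, had the largest difference of the 12 most raised genes. Egr2 had a difference of -0.82 (interval -2.68 to 1.04), which was 0.895 without unstimulated upACSS2 replicate 2. Ccn1 had one of 0.70 (interval -0.38 to 1.78), which was -0.077 without unstimulated vector replicate 3. A single library thus set the sign of both.

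Over the 57 raised activity genes the difference had a median of -0.218, against -0.008 for all genes, and was negative for 37 of 57, against 7728 of 15108. Its range was -1.133 to 1.328, and the median width of the 95% interval was 1.462. The lean was not particular to activity genes. The difference was negative for 23 of 24 potassium channels (median -0.315), 21 of 25 presynaptic genes (-0.353) and 15 of 18 neuron markers (-0.312). Among astrocyte markers it was negative for 1 of 14 (0.778). For 10 of the 57 (17.5%, against 6.78% of all genes) the unadjusted p was under 0.05, at an adjusted p of 0.707 in edgeR for each. These were Egr4, Dusp6, Ier2, Gadd45b, Rgs2, Plk2 and Homer1 with a smaller response under upACSS2, and Gem, Atf3 and Arid5a with a larger one. The share was near that of all 177 genes raised at least 2-fold with upACSS2, of which 33 (18.6%) had an unadjusted p under 0.05 (edgeR). Over those 177 genes the difference had a median of 0.014 and was negative for 88. Both the 57 and the 177 were picked by a rise in the same upACSS2 libraries, and this pick favours a larger difference. Over all 103 tested activity genes, called or not, the median was -0.285, with 68 negative. Of these 103, 11 (10.7%) had an unadjusted p under 0.05 (edgeR). For Ier2 the difference of -0.92 was -0.369 without unstimulated upACSS2 replicate 2. Without unstimulated vector replicate 3 the median over the 57 activity genes was -0.257, with 44 of 57 negative and 8 at an unadjusted p under 0.05 (edgeR).

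**Figure D4:**
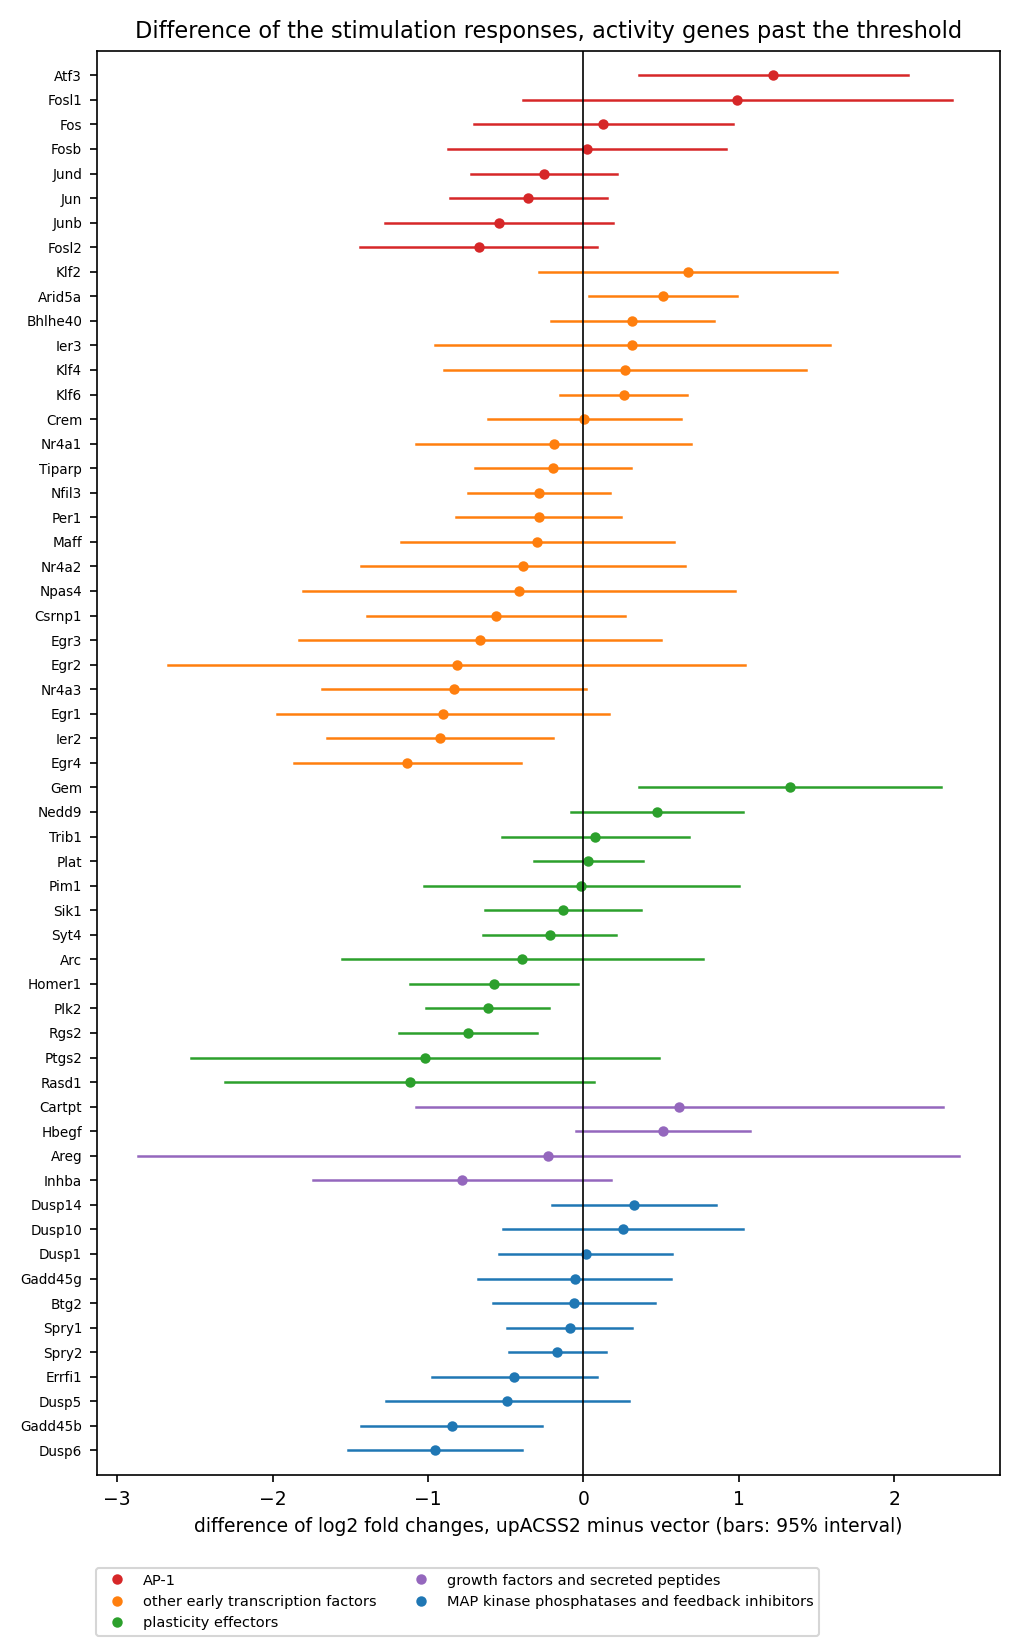
Difference of the log2 fold changes, upACSS2 minus vector, for the 57 activity genes that rose with upACSS2, by list; points are estimates from the fit and bars 95% intervals. Most points lie left of 0, and the intervals that exclude 0 are those of the 10 genes named in the text; none passed the threshold after adjustment.

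For 6 of the 7 members with smaller responses, all but Homer1, every unstimulated upACSS2 library was above every unstimulated vector library, while the stimulated ones overlapped. The 7 were picked by their difference in these same libraries, so a separation within 1 of the tables follows in part from the pick. The share of all genes with this pattern was not counted, so the count is a description. Dusp6 had 212, 198 and 234 CPM in stimulated vector libraries, overlapping the upACSS2 ones, but 37.5, 34.3 and 19.1 CPM in unstimulated vector libraries, all below the upACSS2 ones. Its difference was -0.96 (interval -1.52 to -0.39, unadjusted p = 0.00201, edgeR). Egr4 was at 494, 526 and 634 CPM against 21.9, 13.9 and 11.3 CPM with vector (difference -1.13, interval -1.86 to -0.40). Its unstimulated vector libraries were likewise all below those with upACSS2. Rgs2 showed this pattern as well, at 299.8, 329 and 388 CPM against 59.1, 65.7 and 48.1 CPM (difference -0.74, interval -1.19 to -0.30), and so did Plk2, at 481, 399 and 483 CPM against 94.1, 80.4 and 79.5 CPM (-0.62, interval -1.01 to -0.22). Over the 57 genes the upACSS2 effect within the unstimulated table had a median of 0.15 and was positive for 39, and within the stimulated table -0.068 and negative for 35. Within the unstimulated table the median was 0.26 for potassium channels, 0.298 for presynaptic genes, 0.277 for neuron markers and -0.748 for astrocyte markers. These medians are descriptions and were not tested. In edgeR, 3 of the 57 passed within the unstimulated table (1.81% of all genes did) and none within the stimulated one. The 3 were Dusp6 (0.91, adjusted p = 0.0267), Rgs2 (0.76, 0.0208) and Plk2 (0.57, 0.0442). Dusp6 and Rgs2 lost these calls without upACSS2 replicate 1, upACSS2 replicate 3 or vector replicate 3 (adjusted p up to 0.13 and 0.114), and Plk2 without any single library other than vector replicate 1 (up to 0.142).

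In the other direction Atf3 had 153, 268 and 249 CPM against 5.88, 9.52 and 13.7 CPM with vector, where the stimulated levels overlapped and 2 of the 3 unstimulated vector libraries were above all upACSS2 ones (difference 1.22, interval 0.36 to 2.09). Gem had 33.1, 16.7 and 31.1 CPM against 12.3, 11.5 and 33.8 CPM. The last value, from unstimulated vector replicate 3, is as high as the stimulated ones (difference 1.33, interval 0.36 to 2.30). Without that library the difference of Gem was 0.63 and that of Atf3 0.886.

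Activity genes past the threshold under 1 virus only do not show a difference between the viruses. Gem, Hbegf, Ier3 and Nedd9 passed with upACSS2 only, and Bdnf, Dclk1, Dusp4, Dusp8, Nptx2, Pcsk1, Scg2, Spry4, Srf and Vgf with vector only. In vector neurons Bdnf had 331, 220.3 and 327 CPM against 154, 90.6 and 58.9 CPM, a change of 1.53 (adjusted p = 0.00789, edgeR). Its difference from the upACSS2 response was -0.91, with an interval of -1.88 to 0.06. Unstimulated vector libraries were spread from 58.9 to 154 CPM, and those with upACSS2 from 98.6 to 196 CPM. Vgf had 1000, 510.4 and 752 CPM against 546, 149 and 141 CPM with vector (difference -0.87, interval -2.13 to 0.39), so that unstimulated replicate 1 lay within the stimulated range. The difference of Vgf was -1.814 without that replicate, -0.574 without replicate 2 and -0.551 without replicate 3 of the unstimulated vector libraries.

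The differences of lowest p were found outside the activity lists, apart from Dusp6, and all had an adjusted p of 0.707 in edgeR. Sap18, a subunit of a histone deacetylase complex, had 44.7, 47.0 and 50.4 CPM in stimulated and 40.1, 39.1 and 37.8 CPM in unstimulated upACSS2 libraries, but 76.0, 62.8 and 82.6 CPM against 38.0, 38.8 and 36.6 CPM with vector. Among these, only the stimulated vector libraries stood out (difference -0.68, unadjusted p = 0.000475, edgeR). In upACSS2 neurons given tau, however, Sap18 rose by 0.79, against 0.28 with upACSS2 and 0.96 with vector in PBS. Compared within the stimulated table, where 0.265% of all genes passed, Sap18 was lower with upACSS2 than with vector by a log2 value of -0.64 (adjusted p = 0.0211, edgeR), a call lost without any single library other than stimulated vector replicate 2 (up to 0.192). Ovca2, a serine hydrolase, was at 33.1, 42.2 and 34.9 CPM against 16.7, 16.3 and 14.4 CPM with upACSS2, and at 56.4, 57.7 and 62.3 CPM against 16.2, 17.5 and 15.4 CPM with vector. It rose in both, less with upACSS2 (1.22 and 1.84; difference -0.63, unadjusted p = 0.000617). Within the stimulated table it was also lower with upACSS2 (-0.68, adjusted p = 0.00613, edgeR), and not called without upACSS2 replicate 1 (0.053) or 3 (0.0626) or vector replicate 3 (0.103). In upACSS2 neurons given tau the rise of Ovca2 was 1.76, nearer that of vector neurons in PBS. Among those with a positive difference, Ilvbl had one of 0.77 (unadjusted p = 0.000461, edgeR), Hsd17b11 of 1.19 (0.742 without unstimulated vector replicate 3) and the serine protease Htra1 of 0.86. Their fitted responses had opposite signs, at 0.38, 0.50 and 0.59 with upACSS2 and -0.39, -0.69 and -0.27 with vector. Of these responses only that of Htra1 with upACSS2 (adjusted p = 0.0284) and that of Hsd17b11 with vector (0.0451) passed in edgeR. The Htra1 call held under 7 of the 16 alternatives. For Ilvbl, Hsd17b11 and Htra1 the log2 values of upACSS2 over vector were -0.54, -0.91 and -0.55 within the unstimulated table. Within the stimulated one they were 0.23, 0.28 and 0.30.

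Lists outside the activity genes leaned apart between the viruses, together with single libraries. The 21 genes of cholesterol synthesis had a median of -0.475 with upACSS2 and 0.204 with vector, and none of the 21 differences was positive (median -0.644). Summed over the list, unstimulated upACSS2 replicates 1 to 3 had 2690, 2241 and 4804 CPM, and the stimulated ones 2709, 1837 and 2775 CPM. Only unstimulated replicate 3 stood out. Without it the median was -0.099 with upACSS2, and -0.292 for the difference, with 3 positive. Hmgcs1, which makes the precursor HMG-CoA, showed the same library: 889, 701 and 1694 CPM unstimulated against 809.9, 526 and 837 CPM stimulated. No gene of the list passed in edgeR with upACSS2; 5 fell with the replicate block and 3 in DESeq2.

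The astrocyte markers leaned the other way. All 14 had a positive value with upACSS2 (median 0.498, none past the threshold), and the vector median was -0.205. Their summed level was 12230, 7167 and 11700 CPM in stimulated and 8421, 5304 and 7045 CPM in unstimulated upACSS2 libraries, and 9963, 6241 and 23830 CPM in unstimulated vector libraries. The last of these, replicate 3, is far above all others. The median difference of 0.778 became 0.236 without that library. Gfap, the astrocyte filament protein, had 5288, 2122 and 4888 CPM against 3546, 1648 and 2410 CPM with upACSS2, overlapping between the groups. In bulk RNA, fewer cells of a type and less RNA per cell cannot be told apart.

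Neuron markers had a median of 0.032 with upACSS2 and none passed, at summed levels of 10420, 11280 and 12230 CPM in stimulated and 10190, 10260 and 12880 CPM in unstimulated libraries. The sums overlapped between the groups. With vector the median was 0.338, and unstimulated vector libraries summed to 12140, 8117 and 7221 CPM, lowest in replicate 3. The part of these shifts in the differences between the viruses was not tested beyond leaving the library out.

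**Figure D5:**
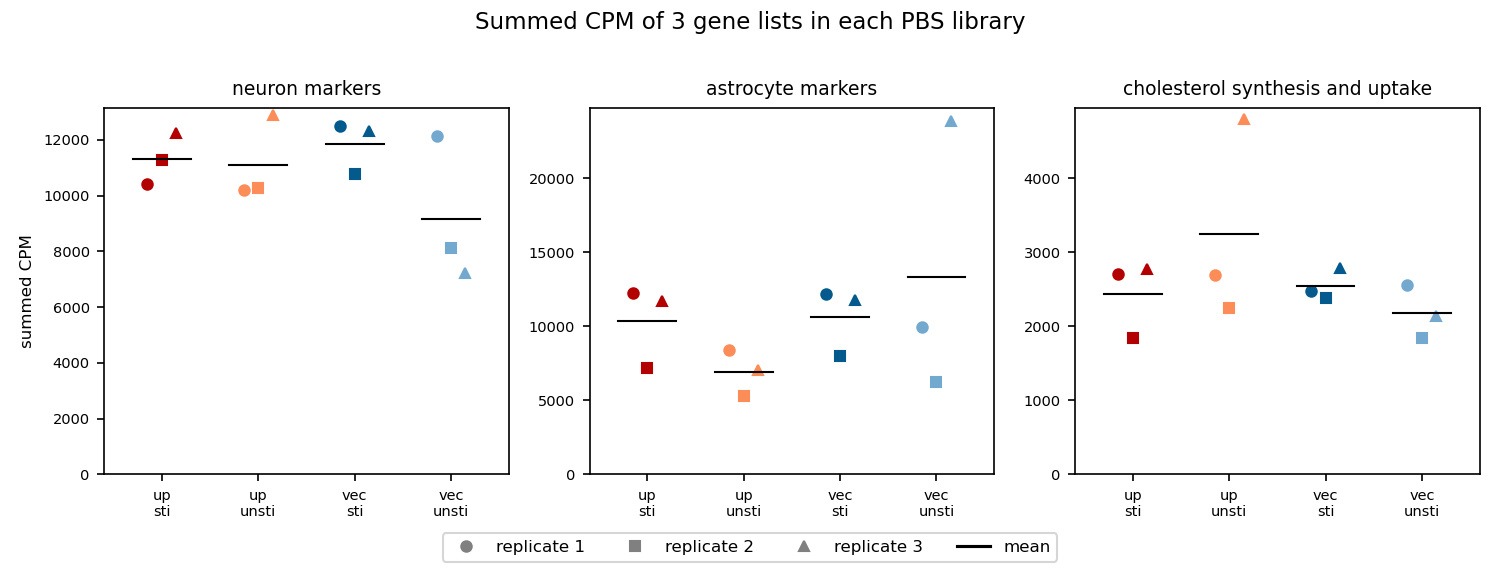
Summed CPM of the neuron, astrocyte and cholesterol synthesis lists in each library in PBS, by group; symbols are replicates and the vertical axes start at 0. Unstimulated vector replicate 3 stands at 23830 CPM for astrocyte markers, and unstimulated upACSS2 replicate 3 at 4804 CPM for cholesterol synthesis.

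UpACSS2 neurons that had been given tau responded with many of the same genes. The same contrast in these 6 other libraries, taken from the same tables, called 355 genes (2.35%; 74.1% of them higher, or 61.6% with scaling by library totals). Of the 559 genes called in PBS, 283 (50.6%, or 79.7% of the 355) were called in the same direction. Among the activity genes, 50 of 103 rose in tau, against 1.74% of all genes, of which 49 were among the 57 raised in PBS. The AP-1 list had 7 called members, the other early factors 18, the phosphatases and feedback inhibitors 11, the plasticity effectors 10 and the secreted factors 4.

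The most raised genes of the PBS contrast rose in tau as well, by more or less. Fos rose by 5.06 in tau and 5.12 in PBS, Fosb by 7.08 and 7.32, Npas4 by 6.35 and 6.15, and Arc by 4.51 and 4.53, while Hes5 fell by 2.93 and 3.64. Nr4a2 rose by 4.61 in tau against 5.61 (difference -1.01, interval -2.04 to 0.03), Egr2 by 6.52 against 5.58 (0.95, interval -1.06 to 2.95), Nr4a1 by 4.43 against 4.94 and Ccn1 by 4.34 against 4.85. Dusp6 rose by 2.53 against 1.87 and Egr1 by 3.54 against 2.87. The difference between tau and PBS passed the threshold for none of the 15108 genes in edgeR or DESeq2 (0%; 191, or 1.26%, at an unadjusted p under 0.05 in edgeR), so no gene was shown to respond differently with tau.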

How the data were processed

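RNA-seq libraries were compared from 2 deposited tables of raw read counts per gene symbol, 1 stimulated and 1 unstimulated. STAR, featureCounts, HTSeq and DESeq2 and the build mm10 are named per the submitters' processing notes, with no versions or order. The counts the authors deposited were joined by symbol (25239 in both tables). Of these, 1487 symbols were at 0 throughout 1 table only, none of which was tested. Libraries held 17386121 to 39985460 counts. No replicate pair agreed within sampling noise: the lowest chi-square per gene of 24 pairs was 5.68.

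The 24 day 21 libraries with a virus (8 groups of 3) were fitted together in edgeR 4.0.16 under R 4.3.3, with TMM scaling, filterByExpr by group (15108 genes kept) and the quasi-likelihood test, two-sided. P-values were adjusted by Benjamini-Hochberg over all genes, with a threshold of 0.05. CPM use TMM-scaled totals, and fold changes are on the log2 scale. DESeq2 1.42.0, other scalings, filters, sample sets, replicate blocks and leaving out each library were alternatives. The procedure was tested on simulated data.

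Members and lists were chosen with earlier results of these data known. Beside the listed genes and Acss2, the text names at most the 12 highest and 12 lowest changes among called genes whose groups do not overlap and whose average log2 CPM reaches 1, leaving out predicted and clone-based genes, and some of the 5 lowest-p differences in each direction. One of these is not reported here.

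Replicate numbers come from the titles. Correlations of deviations from group means between same-numbered stimulated and unstimulated libraries were 0.461, 0.580 and 0.374 for upACSS2 in PBS, above the limit of 0.1 for pairing, and 0.300, 0.467 and 0.056 for vector in PBS and 0.081, 0.260 and 0.195 for upACSS2 in tau, each with 1 below it. Counts and p-values are from the fit without a replicate term unless the block is named. Promoter windows, one per gene, were RefSeq's for GRCm38.p6.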

Additional observations from a re-analysis of the deposited data

How the results depend on the processing

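The difference of the responses between the viruses, and that between tau and PBS, had 0 genes past the threshold in edgeR under every alternative run, and 0 in DESeq2. Calls in upACSS2 neurons numbered 559 and came to 875 with DESeq2, 310 with only the 12 libraries in PBS, and 326 to 408 without 1 library (326 without stimulated replicate 1, 346 without stimulated replicate 3, 336 without unstimulated replicate 2). With the replicate block within tables they were 357, and 1047 with the replicate block across tables. Vector calls numbered 1079 and came to 1635 with DESeq2, 541 with only the PBS libraries, 478 without the libraries high in Rn45s, 344 and 2370 with the blocks within and across tables, and 460 to 2836 without 1 library (535 and 460 without stimulated replicate 1 and 3, 2836 and 512 without unstimulated replicate 1 and 2). Calls in tau numbered 355 and came to 226 with the block within tables and 217 to 277 without 1 library (217 without stimulated replicate 1, 233 and 220 without unstimulated replicate 1 and 2). The cause was not tested. Of the 559 calls, 240 were kept without each of the 6 libraries in turn and 199 under all 16 alternatives. No single gene named for its response reversed. Of 1440 such values, 1295 kept direction and side of the threshold, 141 lost it and 4 gained it.

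Differences between the viruses that lie near 0 changed sign, none of them past the threshold. Fos was 0.13, -0.037 and -0.025 with the block within and across tables, and -0.49 to 0.373 without 1 library. Fosb was 0.02, -0.079 and -0.043 with these blocks and -0.253 to 0.376. Dusp1 was 0.01, -0.025 without the libraries high in Rn45s and -0.102 to 0.148. Klf4 ranged from -0.888 to 0.596 and Npas4 from -0.649 to 0.003. Egr2 ranged from -1.247 to 0.895 and Ccn1 from -0.077 to 1.101. Libraries of 3 a group and the spread in unstimulated vector neurons limit what differences can be seen: the median 95% interval over the raised activity genes was 1.462 wide on the log2 scale. The blocks across tables, the set without Rn45s-rich libraries and list values without single libraries were chosen after seeing the data.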

Other observations

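A family seen among the lowered genes was counted after its values were seen, so its count is a description. Of 389 tested genes whose symbol is Zfp, Zkscan or Zscan with a number, most of them zinc finger proteins that bind DNA, 51 (13.1%) fell in stimulated upACSS2 neurons, against 1.33% of all genes, and 7 rose. Their median was -0.181 with upACSS2, -0.224 with vector (71 lower) and -0.16 in tau (31 lower), against -0.014 for all genes with upACSS2. Stimulation and table cannot be told apart in this fall.

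A pair of short non-coding RNA genes outside the naming rule, also picked after their values were seen, had the lowest fitted changes, and 1 library set them. Rmrp, the RNA of RNase MRP, was at 29.95, 0.3124 and 0.2597 CPM in unstimulated upACSS2 replicates 1 to 3 and at 0.2411, 0.1709 and 0.209 CPM in the stimulated ones (-5.60, adjusted p = 0.0233, edgeR). Rpph1, the RNA of RNase P, was at 37.48, 0.2678 and 0.1039 CPM against 0.3314, 0.1424 and 0.1741 CPM (-5.84, 0.0192). Replicate 1 is the unstimulated upACSS2 library with 7.93% of its counts in Rn45s. Among unstimulated vector libraries, replicate 2, with 11% in Rn45s, was also the highest for both, at 3.412 CPM for Rmrp and 2.222 CPM for Rpph1. The calls of Rmrp and Rpph1 held under 7 and 8 of the 16 alternatives.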
